A study of Mus musculus with 6 samples.

Results

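Secreted signals that call in and feed leukocytes were followed at the level of their mRNA in a mouse liver line with and without the fusion kinase of fibrolamellar carcinoma. The group holds 10 genes of the 24054 in the deposited table, taken by gene symbol and chosen with earlier results of these data known. They are the CC chemokines Ccl2, Ccl5 and Ccl7, the CXC chemokines Cxcl1, Cxcl5, Cxcl10 and Cxcl12, the CX3C chemokine Cx3cl1, and the cytokines Il6 and Csf1. Of these, 9 had enough counts to be tested and Il6 did not. The parental TIBx line (genotype WT) was compared with the TIBxDNAJ-PKAc line (genotype DNAJ-PKAc). Both carry the cell type label liver BNL 1ME A.7R.1, an established line of transformed mouse embryonic liver cells, and both were grown in the same DMEM medium with serum and added glutamine, with no treatment named. DNAJ-PKAc joins the start of the co-chaperone DNAJB1 to the catalytic subunit of protein kinase A. Each genotype had 3 libraries of total RNA, called A, B and C. The sources used here do not give the promoter that drives the fusion or say whether the fusion line is a clone. With a single line per genotype the fusion and other differences between the lines cannot be told apart.

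Chemokines are small secreted proteins, named for the spacing of their first cysteines, that guide leukocytes along gradients through receptors coupled to G proteins. Their genes lie in clusters and are classical targets of NF-kB, of interferon signalling and, for several of them, of cyclic AMP, and their mRNAs are often short-lived. In the liver, hepatocytes, stellate cells, endothelium and resident macrophages all make such signals during injury and in tumours.

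The libraries held between 8095549 and 9969590 counts, so 1 count was worth about 0.1 CPM (TMM-scaled CPM, the count relative to the scaled library total). On the first principal component of log2 CPM, which carried 55.6% of the variance, DNAJ-PKAc C lay apart from DNAJ-PKAc A and B, and WT B held more ribosomal precursor RNA than the others (Rn45s, 2.66% of counts against 0.912% to 1.05%). Values without these outlying libraries are therefore given beside the members and lists whose calls differ without them. Prkaca, the kinase partner of the fusion, was at 63.6, 87.6 and 79.2 CPM in WT and higher in each fusion library, at 131, 120 and 95.7 CPM (log2 0.59, edgeR adjusted p = 0.154), and Dnajb1 differed by less than its SE; these gene counts do not separate the fusion from the native transcripts. Of 14 leukocyte markers 8 had no count in any library, among them Ptprc, the pan-leukocyte antigen CD45, and the summed level of the 14 was 1.75 to 3.40 CPM in WT and 1.83 to 5.31 CPM in DNAJ-PKAc. The hepatocyte markers Alb, Apoa1, Apob, Ttr, Hnf4a, Serpina1a and Cyp2e1 were at 0 in all 6 libraries, so the defining markers of the labelled tissue were absent. Afp, the fetal liver marker, was the exception among 8 measured, and the list summed to at most 0.329 CPM in WT and to between 2.32 and 10.2 CPM in DNAJ-PKAc. The list of 10 mesenchymal markers, 8 of them tested, summed to between 25242 and 26516 CPM in WT and between 16141 and 30060 CPM in DNAJ-PKAc.

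The start regions of 4 members are shown first, because they hold a match to the kappaB consensus, the motif bound by NF-kB. Their mRNA levels differ from gene to gene, which is not a statement about the genotypes. The activity of the start regions was not measured. Shown are the 160 bases before the RefSeq start on GRCm38.p6 (the assembly of mm10), written 5′ to 3′ on the gene's strand, and capitals mark matches to the motifs searched.
Cxcl1, chr5:90891085-90891244, plus strand: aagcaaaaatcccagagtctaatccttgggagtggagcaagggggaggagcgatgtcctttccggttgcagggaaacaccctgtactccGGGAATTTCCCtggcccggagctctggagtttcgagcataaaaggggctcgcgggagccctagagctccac
Cxcl10, chr5:92348890-92349049, minus strand: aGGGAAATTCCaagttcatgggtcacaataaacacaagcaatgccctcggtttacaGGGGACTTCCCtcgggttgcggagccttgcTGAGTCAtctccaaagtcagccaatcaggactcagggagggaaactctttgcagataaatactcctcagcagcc
Il6, chr5:30012954-30013113, plus strand: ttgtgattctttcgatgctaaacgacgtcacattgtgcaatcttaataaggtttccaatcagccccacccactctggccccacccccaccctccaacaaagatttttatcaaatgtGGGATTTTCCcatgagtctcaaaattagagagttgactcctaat
Csf1, chr3:107760470-107760629, minus strand: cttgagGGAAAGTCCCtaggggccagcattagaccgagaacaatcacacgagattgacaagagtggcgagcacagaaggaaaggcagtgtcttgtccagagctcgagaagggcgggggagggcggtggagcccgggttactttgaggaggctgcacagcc

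RefSeq start regions were matched for 6 of the 10 members. Entries for Ccl2, Ccl5, Ccl7 and Cxcl5 were not used here. In the 250 bases before the start, searched on both strands, the kappaB consensus matched in Cxcl1, Cxcl10, Il6 and Csf1 and not in Cxcl12 or Cx3cl1; 7.25% of the 32851 start regions in the table held a match. The Cxcl1 match, found on both strands, spans the bases from 71 to 61 before the start. Cxcl10 held matches at 159 to 150 and at 104 to 94 bases before the start, an AP-1 match (TGANTCA, in 6.75% of start regions) in the capitals nearest the start, and an interferon response element (GAAANNGAAA, in 2.98%) at 213 to 204, outside the printed stretch. Il6 also held an AP-1 match, 249 to 243 bases before its start. The full cyclic AMP response element, TGACGTCA, was in 1.55% of start regions and matched in none of the 6. Its absence says only that these letters are not in this window. Cx3cl1 held TATAAA, searched on the gene's strand and found in 7.59% of start regions, in the last 6 bases before its start. Of the 4 members with a kappaB match, Il6 had a single count, Cxcl10 was near the limit of counting, Cxcl1 was at a middle level and Csf1 was among the most abundant. Levels differed without a match too, with Cxcl12 at a middle level and Cx3cl1 among the most abundant in WT.

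Per kilobase of exon, which allows levels of different genes to be compared, Ccl2, Csf1 and Cx3cl1 stood highest in WT, at 97.1, 67.4 and 46.8 CPM per kb. Neighbours in this order overlapped between libraries: Ccl2 ran from 55.7 to 129 CPM per kb and Csf1 from 54.3 to 85.4. A middle set followed, with Cxcl1 at 8.03, Ccl5 at 7.17, Cxcl12 at 4.19 and Cxcl5 at 4.09 CPM per kb, while Ccl7 and Cxcl10 lay at 1.06 and 0.587. In DNAJ-PKAc the order began with Csf1 (97.3 CPM per kb) and Ccl2 (73.1), followed by Cx3cl1 at 21.8. Cxcl5 (17.4) and Cxcl1 (17.1) came next, with Ccl7 (4.36) and Ccl5 (3.40) after them and Cxcl12 (1.41) and Cxcl10 (0.889) last. So Cxcl5 stood below Ccl5 on this scale in WT and above it in DNAJ-PKAc. Exon length was merged over annotated transcripts, and the isoforms used by these cells are not known.

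**Figure D1:**
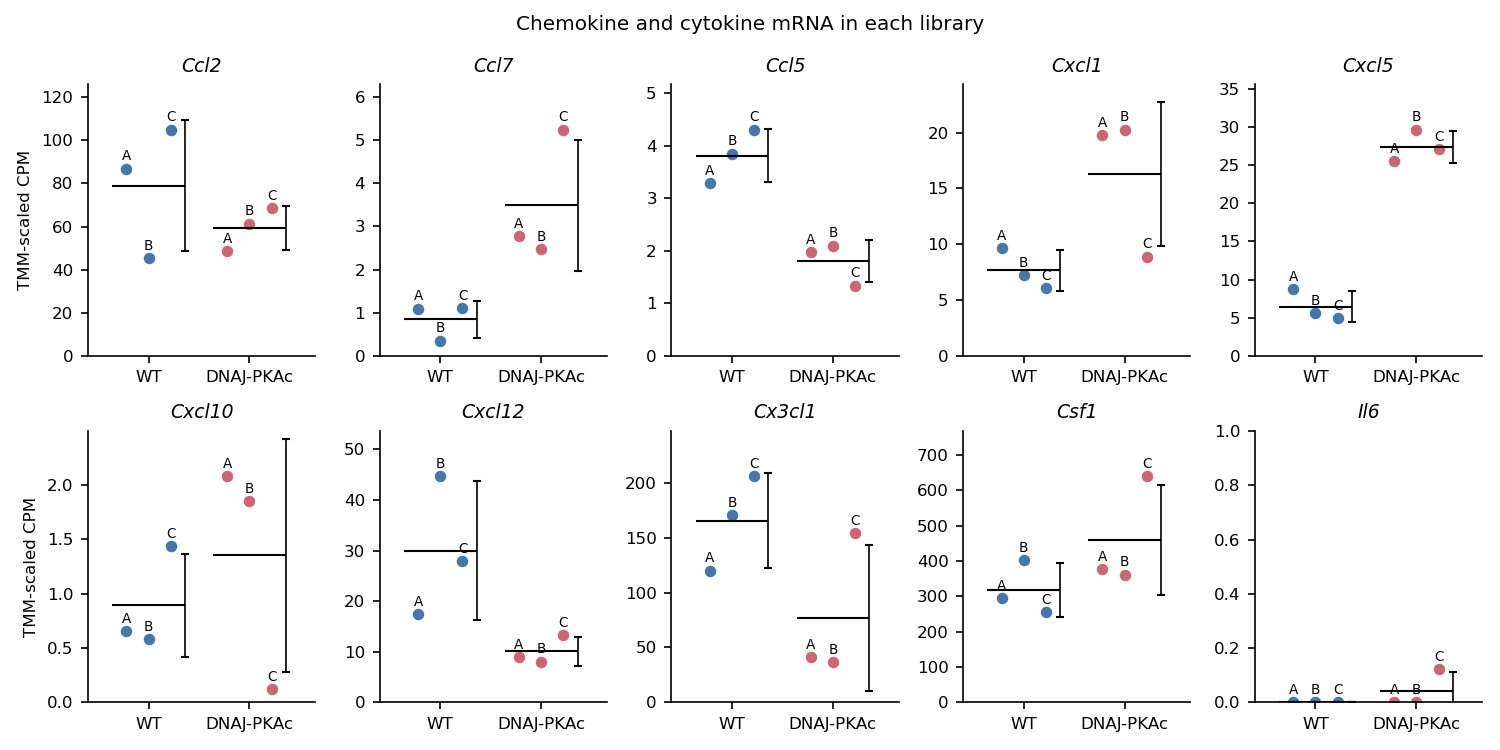
TMM-scaled CPM of the 10 genes in each library (y axis, linear from 0, a separate scale per gene), with WT in blue and DNAJ-PKAc in red, letters naming the library, bars the group mean and whiskers the SD (n = 3). Ccl5, Ccl7, Cxcl5 and Cxcl12 separate the groups with no overlap, as do 28.9% of all genes tested. Cxcl1, Cxcl10 and Cx3cl1 are split between DNAJ-PKAc C and the other 2 fusion libraries, and Il6 has a single count.

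Across the group, 1 of the 9 tested members passed the test and rose, Cxcl5, and 0 fell. Over all 10975 genes tested 3.51% passed in either direction and 1.37% passed as higher (quasi-likelihood test of edgeR, threshold of 0.05 on the p adjusted by Benjamini-Hochberg over all of them). The groups did not overlap for 4 of the 9 members (Ccl5, Ccl7, Cxcl5 and Cxcl12), against 28.9% of all genes tested. Without DNAJ-PKAc C 5 members passed, 3 higher and 2 lower, but so did 25.3% of all genes. With both outlying libraries, WT B and DNAJ-PKAc C, left out, 8 passed, 4 higher and 4 lower, where 48.5% of all genes did. Every count below without outlying libraries is to be read against those shares. DESeq2 on all 6 libraries called 3 (Cxcl5, Ccl7 and Cxcl12), and 8.87% of all genes. Members lay on both sides of 0, with log2 differences (DNAJ-PKAc minus WT) from -1.57 for Cxcl12 to 2.08 for Cxcl5.

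Cxcl5, a neutrophil attractant that acts on the receptor Cxcr2 (chromosome 5, 90759298 to 90761625 in mm10), rose 4.24-fold. WT libraries A to C held 8.77, 5.60 and 4.97 CPM, and fusion libraries A to C held 25.5, 29.6 and 27.1 CPM. Every fusion library lay above every WT library, DNAJ-PKAc C among them. The log2 difference was 2.08 (SE 0.26, edgeR adjusted p = 0.0102). Leaving out WT B, WT C, DNAJ-PKAc A or DNAJ-PKAc B kept the log2 difference between 1.93 and 2.14, but the call was lost, with adjusted p = 0.0569, 0.0543, 0.0506 and 0.0575. DESeq2 gave an adjusted p of 2.3e-09.

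Cxcl1, the other Cxcr2 ligand of the group and the keratinocyte-derived chemokine of the mouse, lies 129619 bases from Cxcl5 in the same cluster (90891245 to 90893121). Its level was 9.64, 7.24 and 6.07 CPM in WT, against 19.8, 20.3 and 8.90 CPM in fusion libraries A to C. Fusion libraries A and B were thus about equal and high, whereas C fell inside the WT range. The log2 difference was 1.09 (SE 0.37) and did not pass (edgeR adjusted p = 0.162). Without DNAJ-PKAc C it was 1.39, a 2.62-fold difference, and passed (adjusted p = 0.00727).

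The proliferation marker Mki67, chosen after its values were seen, was also split between fusion library C and the others. Its WT levels were 107, 155 and 126 CPM, while fusion libraries A and B held 468 and 474 CPM and C held 36.2 CPM. Unlike Cxcl1, Mki67 in C lay below all WT libraries. The log2 difference of Mki67 was 1.34 (edgeR adjusted p = 0.347), and 1.87 without DNAJ-PKAc C (adjusted p = 0.00121). Its part in the Cxcl1 values was not tested. The ratio of the 2 cluster members, also chosen after the values were seen, needs no scaling between libraries. It reuses the Cxcl5 counts that already separated the groups. Cxcl5 counts per 100 counts of Cxcl1 were 90.9, 77.4 and 81.8 in WT, against 129, 146 and 304 in fusion libraries A to C. All fusion libraries were higher, with C the highest, and the exact permutation p of 0.1 (2-sided) is the smallest that 3 libraries against 3 can give.

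Other ligands of this cluster were silent or nearly so. Cxcl2, the close relative of Cxcl1 that lies 10777 bases from it, had no count in any library, nor did Cxcl3, Cxcl15 or Pf4. Ppbp, 6892 bases from Cxcl5, had 18 counts in WT against 28 in the fusion libraries, too few to be tested.

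Cxcl10 attracts activated T cells through Cxcr3 and is a classical interferon response gene (chromosome 5, 92346638 to 92348889). It was barely detected, with 6, 5 and 13 counts in WT against 21, 15 and 1 in fusion libraries A to C. The single count in C lay below all WT libraries, while A and B lay above them. The log2 difference of 0.61 had an SE of 0.81 (edgeR adjusted p = 0.680). Leaving out fusion library C gave 1.13 with an SE of 0.47 (adjusted p = 0.122), and neither value passed. Cxcl10 had passed the count filter through 1 WT and 2 DNAJ-PKAc libraries.

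Its cluster neighbour Cxcl11, another Cxcr3 ligand, had 10, 7 and 7 counts in WT and 0, 2 and 0 in DNAJ-PKAc. The summed counts, 24 against 2, gave a level 12.0-fold higher in WT after division by the totals, with a 95% interval of 2.97 to 105 that covers counting error only. Its counts were too few for the test. The third gene of the trio, Cxcl9, had no count.

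Ccl2 and Ccl7, both ligands of the monocyte receptor Ccr2, lie 8259 bases apart on chromosome 11 (82035577 to 82037452 and 82045712 to 82047525) and did not differ in the same direction. Ccl2 was at 86.8, 45.3 and 105 CPM in WT, against 48.5, 61.4 and 68.5 CPM in the fusion libraries. The groups overlapped because WT B was the lowest library of all, and the log2 difference of -0.41 (SE 0.31) did not pass (edgeR adjusted p = 0.460). With both outlying libraries left out it was -0.85 and passed (adjusted p = 7.8e-05).

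Ccl7 was at 1.10, 0.350 and 1.10 CPM in WT, against 2.77, 2.47 and 5.24 CPM in the fusion libraries, corresponding to 10, 3 and 10 against 28, 20 and 43 counts. All fusion libraries lay higher, with C the highest. The log2 difference was 2.01 (SE 0.52), a 4.03-fold difference that did not pass with edgeR (adjusted p = 0.0948) and passed with DESeq2 (adjusted p = 0.0301). Without DNAJ-PKAc C it was 1.60 and passed (edgeR adjusted p = 0.0461), and with both outlying libraries left out it was 1.20, a 2.30-fold difference (adjusted p = 0.0209). Ccl7 met the filter in all 3 DNAJ-PKAc libraries but in 1 WT library, so it entered the test mainly through the group in which it was high.

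Ccl7 counts per 100 counts of Ccl2, a comparison chosen after the values were seen, were 1.26, 0.773 and 1.05 in WT and 5.71, 4.02 and 7.65 in DNAJ-PKAc. The ratio was 5.55-fold higher in DNAJ-PKAc (exact permutation p = 0.1, 2-sided, the smallest possible here), and every fusion library exceeded every WT library. It reuses the Ccl7 counts, which already separated the groups, so this separation adds no independent support. The remaining genes of that cluster, Ccl1, Ccl8, Ccl11 and Ccl12, had between 0 and 2 counts over all 6 libraries.

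**Figure D2:**
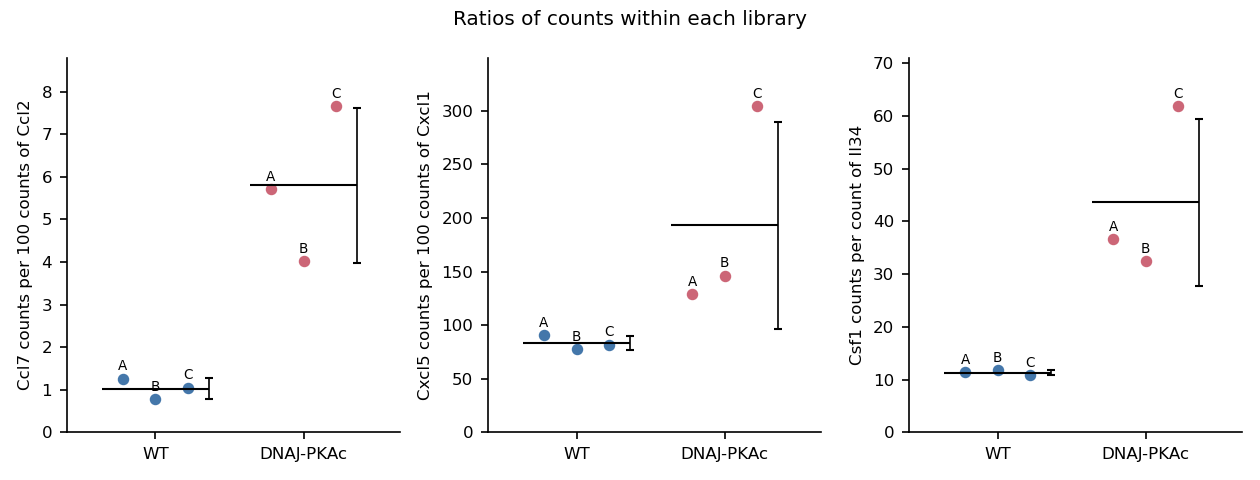
Counts of a gene relative to counts of a related ligand in the same library (y axes, linear from 0), with points for the libraries, bars for the group mean and whiskers for the SD (n = 3). In all 3 panels the DNAJ-PKAc libraries lie above the WT libraries and DNAJ-PKAc C is the highest. The panels reuse the counts of Ccl7, Cxcl5 and Il34, which already separated the groups.

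Ccl5, or RANTES, draws T cells and monocytes (chromosome 11, 83525778 to 83530518). Its levels were 3.29, 3.85 and 4.31 CPM in WT, against 1.98, 2.10 and 1.34 CPM in the fusion libraries. The groups did not overlap, and library C was the lowest, the reverse of its place for Ccl7. The log2 difference of -1.07 (SE 0.31) did not pass (edgeR adjusted p = 0.125), nor without DNAJ-PKAc C (-0.90, adjusted p = 0.0602), but it did with both outlying libraries left out (-0.94, adjusted p = 0.0295).

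Cxcl12, the homeostatic chemokine that retains stem cells and lymphocytes through Cxcr4 (chromosome 6, 117168535 to 117181368), was at 17.4, 44.7 and 27.9 CPM in WT, against 8.91, 8.03 and 13.3 CPM in the fusion libraries. The fusion libraries were all below the WT libraries, and WT B was the highest. The log2 difference of -1.57 (SE 0.38), a 2.98-fold lower level, did not pass with edgeR (adjusted p = 0.0804) and passed with DESeq2 (adjusted p = 0.00168). It also passed without DNAJ-PKAc C (-1.82, edgeR adjusted p = 0.0250) and with both outlying libraries left out (-1.46, adjusted p = 0.000141). The value without WT B alone was -1.21 (adjusted p = 0.150).

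Cx3cl1, or fractalkine, is made as a membrane-bound adhesion molecule whose chemokine head can be shed (chromosome 8, 94772180 to 94782427). WT held 120, 170 and 206 CPM, and fusion libraries A to C held 41.1, 36.7 and 154 CPM. Fusion libraries A and B were the lowest of the 6, and C lay within the WT range. With all libraries the log2 difference of -1.10 (SE 0.56) did not pass (edgeR adjusted p = 0.295). Without DNAJ-PKAc C it was -2.09, a 4.25-fold lower level (adjusted p = 0.00246), and with both outlying libraries left out it was -2.11 (adjusted p = 0.0195).

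Ccl17, a ligand of Ccr4 that lies 26952 bases from Cx3cl1, had the same split at much lower counts, with 13, 8 and 17 in WT against 1, 1 and 14 in fusion libraries A to C. Ccl22, on the other side of Cx3cl1, had no count. Without DNAJ-PKAc C the log2 difference of Ccl17 was -3.53 (edgeR adjusted p = 0.0137), and with it -1.17 (adjusted p = 0.469). Without C it was tested only through the WT libraries, since fusion libraries A and B held 1 count each. Of the 8 tested mesenchymal markers, 7 had fusion libraries A and B below all WT libraries and C not. The share of all genes tested with this split was not counted, so no excess among these markers can be read from it. Across the genes tested, log2 CPM of C correlated with that of A and B at 0.914 and 0.911, against 0.993 between A and B. The mean of A and B was 88.0% of the WT mean for Vim, the intermediate filament vimentin, and between 19.9% and 49.3% for the other six. Acta2, smooth muscle actin, went the other way and rose 4.55-fold (edgeR adjusted p = 0.0102), with 7.18 to 10.5 CPM in WT and 34.7 to 56.7 CPM in the fusion libraries. Dcn, the matrix proteoglycan decorin, was at 397, 257 and 442 CPM in WT, against 92.4, 105 and 393 CPM in the fusion libraries. Col3a1, a fibrillar collagen chain, held 1000 and 952 CPM in A and B but 4890 CPM in C, and 4219 to 5732 CPM in WT. Whether these shifts and that of Cx3cl1 have a common basis was not tested, and in bulk RNA fewer cells that express a gene and less RNA per cell cannot be told apart.

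Csf1, the growth and survival factor of macrophages, was the most abundant member in CPM (chromosome 3, 107741048 to 107760469). Its level was 295, 403 and 256 CPM in WT, against 378, 361 and 640 CPM in the fusion libraries. Only C lay above all WT libraries, and the log2 difference of 0.53 (SE 0.28) did not pass (edgeR adjusted p = 0.312). Without DNAJ-PKAc C it was 0.22 (adjusted p = 0.466), and with both outlying libraries left out 0.38 (adjusted p = 0.00569).

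Il34, the alternative ligand of the Csf1 receptor, fell 2.63-fold. The levels were 25.9, 34.1 and 23.7 CPM in WT, against 10.3, 11.1 and 10.4 CPM in the fusion libraries, with no overlap (log2 -1.40, SE 0.20, edgeR adjusted p = 0.0170). That call was lost when WT A or C, or DNAJ-PKAc A or B, was left out (adjusted p = 0.0763, 0.0596, 0.0964 and 0.0839). The number of Csf1 counts per count of Il34, also chosen after the values were seen, was 11.4, 11.8 and 10.8 in WT and 36.7, 32.5 and 61.8 in DNAJ-PKAc (exact permutation p = 0.1, 2-sided, the smallest possible). The WT libraries agreed closely in this ratio, WT B included, and the fusion libraries were 3.70-fold higher. The ratio reuses the Il34 counts, which already separated the groups, while those of Csf1 overlapped. The receptor Csf1r itself had between 1 and 7 counts per library and was not tested.

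Il6, the acute-phase cytokine of the liver (chromosome 5, 30013114 to 30019975), had 0 counts in the WT libraries and 1 count in DNAJ-PKAc C. With 26603321 counts over the WT libraries, a count of 0 allows a level of up to 0.113 CPM (3 counts over the group). No fold is given between 0 counts and 1. The relatives Lif and Il11, which share the receptor chain gp130 with Il6, were expressed: Lif averaged 60.4 ± 24.4 CPM in WT and 52.3 ± 12.8 CPM in DNAJ-PKAc (SD, n = 3; edgeR adjusted p = 0.736), and Il11 averaged 8.87 ± 4.19 and 12.8 ± 6.92 CPM (adjusted p = 0.577).

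**Figure D3:**
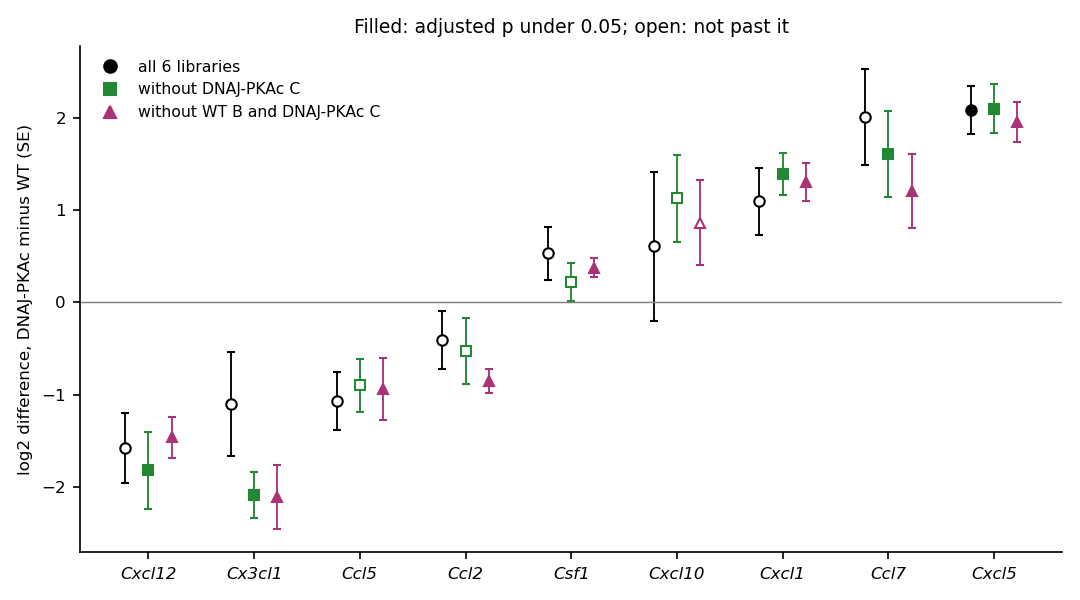
Log2 difference, DNAJ-PKAc minus WT (y axis, whiskers SE), of the 9 tested members (x axis), with all 6 libraries (circles), without DNAJ-PKAc C (squares) and with WT B also left out (triangles); filled symbols passed an adjusted p of 0.05. With all libraries Cxcl5 is the filled symbol, and Cx3cl1 moves most when DNAJ-PKAc C is left out, from -1.10 to -2.09.

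For each tested member the genes of most similar course over the 6 libraries were sought among 9498 genes of at least 5 CPM, by the root mean square distance between log2 CPM values centred on each gene's mean. Cxcl5 lay nearest to Thbd, the anticoagulant receptor thrombomodulin (distance 0.22), and to the kinase gene Styk1 (0.23). Cxcl12 lay nearest to the cadherin gene Dchs1 (0.16) and to Tgfb1 (0.16), and Ccl7 to Gch1, an enzyme of biopterin synthesis (0.27), and Cebpd (0.30). Cx3cl1 lay nearest to Ccpg1 (0.11) and Mrc2 (0.12), and Cxcl1 to Qrsl1 (0.10) and Fam60a (0.11). Nearest to Cxcl10 were the replication factor gene Rfc5 (0.26) and the centromere protection gene Sgol2 (0.27). Ccl2 was nearest to Pts (0.09) and Rpl22l1 (0.13), and Csf1 to Xdh (0.09) and Steap2 (0.11). With 6 values per gene and many genes searched, the distances are a description.

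Of 30 other chemokine ligands, 2 had enough counts for the test, compared with 45.6% of all genes in the table, and 18 had no count in any library. The 2 were Ccl17 and Ccl25, a thymic and gut chemokine, which was at a log2 difference of -0.67 (edgeR adjusted p = 0.328). Neither passed, 0 had an unadjusted p under 0.05, and DESeq2 and limma-voom also called 0. Of 23 chemokine receptors 1 was tested and 14 had no count. It was Ackr3, a scavenging receptor for Cxcl12, at 12.6, 16.7 and 10.6 CPM in WT, against 9.70, 8.89 and 9.75 CPM in the fusion libraries (log2 -0.49, SE 0.24, edgeR adjusted p = 0.271). Cxcr3, the receptor of Cxcl10, had 9, 8 and 8 counts in WT and 13, 5 and 0 in DNAJ-PKAc. Cxcr2 and Cxcr4, the receptors for Cxcl5 and Cxcl12, had no count in these cells.

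Among the 13 tested of 28 other inflammatory cytokines, 0 rose and 1 fell, Il34, with a median log2 difference of -0.09 against 0.05 over all genes tested. DESeq2 called 2, Il34 and Tgfb1. Tgfb1, the fibrogenic growth factor, was second by p, at -1.51 (SE 0.45, edgeR adjusted p = 0.127), with 40.4 CPM in WT B against 13.5 and 17.9 CPM in WT A and C. It passed with DESeq2 (adjusted p = 0.0133) and with both outlying libraries left out (-1.17, edgeR adjusted p = 0.000215). Tnf, Il1a and Il1b, the classical inducers of these chemokines, had at most 2 counts over all libraries. Without DNAJ-PKAc C 2 of the 13 rose and 4 fell (median -0.50, against 0.00 over all genes), and with both outlying libraries left out 2 rose and 6 fell (median -0.74).

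Upstream of the chemokine genes lie receptors, adaptors and NF-kB, which are described next. Of 26 tested receptor and adaptor genes for TNF, IL-1 and Toll-like receptor ligands, 0 rose and 1 fell (median 0.01); 1 rose and 2 fell without DNAJ-PKAc C, and 4 rose and 4 fell with both outlying libraries left out. The gene that fell was Tlr3, the endosomal sensor of double-stranded RNA. Its level was 17.8, 25.2 and 13.0 CPM in WT, against 1.88, 1.36 and 2.32 CPM in the fusion libraries, a 10.0-fold lower level (log2 -3.32, SE 0.35, edgeR adjusted p = 0.00685) that passed with any single library left out. Il17rc was second, at 0.49 (adjusted p = 0.127), and passed with both left out (0.38, adjusted p = 0.00874). Of the 16 NF-kB subunits, inhibitors and kinases, all tested, 0 rose and 0 fell with edgeR (median 0.01). An unadjusted p under 0.05 was found for 3 of them. Such counts, here and in other lists, were not compared with the share of all genes tested. Neither an excess nor its absence can be read from them. For the 16 genes limma-voom called 0 and DESeq2 2, Chuk and Map3k14. With edgeR the kinase genes Chuk (0.70, adjusted p = 0.0803) and Map3k14 (-0.65, adjusted p = 0.139) came nearest. Both passed without DNAJ-PKAc C (0.79 and -0.81, adjusted p = 0.0120 and 0.0161), where 1 of the 16 rose and 1 fell, and with both outlying libraries left out 3 rose and 1 fell. Rela (-0.22, adjusted p = 0.475) and Nfkbia (-0.21, adjusted p = 0.429) differed little and did not pass. Nfkbia was at 42.2, 39.7 and 44.8 CPM in WT, against 38.5, 37.8 and 33.3 CPM in the fusion libraries. Its groups thus did not overlap, as for 28.9% of all genes tested.

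Among 15 tested other NF-kB targets 0 rose and 1 fell (median -0.03). Without DNAJ-PKAc C 2 rose and 2 fell (median -0.26), and with both outlying libraries left out 1 rose and 4 fell. Mmp9, a gelatinase that also trims chemokines, was at 108, 133 and 126 CPM in WT, against 40.2, 35.0 and 41.2 CPM in the fusion libraries. It fell 3.15-fold (log2 -1.66, SE 0.16, edgeR adjusted p = 0.00458) and passed with any single library left out, the opposite direction to Cxcl5. Sod2, the mitochondrial superoxide dismutase gene, was at 0.53 (adjusted p = 0.133), and passed without DNAJ-PKAc C (0.59, adjusted p = 0.0345).

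Of 13 tested genes for receptors of the IL-6 family and Csf1 and their signal, 1 rose and 0 fell (median -0.06), with 5 at an unadjusted p under 0.05; limma-voom called 1 and DESeq2 3, Cebpd as higher and Socs3 and Tyk2 as lower. Without DNAJ-PKAc C 2 rose and 3 fell (median -0.43), and with both outlying libraries left out 2 rose and 8 fell (median -0.35). Cebpd, a transcription factor of the acute-phase response, was at 30.4, 23.7 and 31.7 CPM in WT, against 102, 93.0 and 181 CPM in the fusion libraries, with C the highest as for Ccl7. It rose 4.38-fold (log2 2.13, SE 0.29, edgeR adjusted p = 0.0141), a call lost without WT A, WT B or WT C (adjusted p = 0.0746, 0.0705 and 0.0674). Tyk2, a kinase bound to gp130, was at -0.61 (adjusted p = 0.0980) and passed without DNAJ-PKAc C (-0.62, adjusted p = 0.0332) and with DESeq2 (adjusted p = 0.0183). Il6st, which encodes gp130, was at 0.14 (adjusted p = 0.898) with all libraries and at -0.87 without DNAJ-PKAc C (adjusted p = 0.00930).

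The interferon route to Cxcl10 had 10 tested genes of 14 and 0 called by edgeR (median 0.02), with 3 at an unadjusted p under 0.05, 0 called by limma-voom and 1, Irf1, by DESeq2. Irf1 was at -0.87 (SE 0.25, edgeR adjusted p = 0.119), with every fusion library below every WT library. It passed without DNAJ-PKAc C (-1.06, adjusted p = 0.0185) and with both outlying libraries left out (-1.21, adjusted p = 0.000563), where 0 genes of the list rose and 1 fell, and 1 rose and 3 fell. Of the 14 genes for cytokine mRNA decay and stability, all tested, 0 were called by edgeR, DESeq2 or limma-voom (median -0.12), and 2 had an unadjusted p under 0.05. Without DNAJ-PKAc C 2 rose, Mapkapk2 (0.55, edgeR adjusted p = 0.0330) and Tial1 (0.58, adjusted p = 0.0386), and with both outlying libraries left out 5 rose and 1 fell. With all libraries Mapkapk2, a kinase that stabilises cytokine mRNAs, was at 0.52 (adjusted p = 0.118), Arid5a, an Il6 mRNA stabiliser, at -0.69 (adjusted p = 0.177; 0.0161 with both left out) and Zfp36, which targets such mRNAs for decay, at -0.07 (adjusted p = 0.870).

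Chemokine processing and display had 15 tested genes of 18, of which 1 rose and 1 fell (median -0.03). Without DNAJ-PKAc C 3 rose and 4 fell (median -0.29), and with both outlying libraries left out 3 rose and 8 fell (median -0.34). DESeq2 called 5, which were Gpc1, Sdc3, Adam10, Sdc1 and Sdc4. Heparan sulfate proteoglycans hold chemokines at the cell surface. The glypican gene Gpc1 rose 2.08-fold, from 249 ± 23.2 to 518 ± 59.5 CPM (SD, n = 3; edgeR adjusted p = 0.0203), and the syndecan gene Sdc3 fell 2.78-fold, from 263 ± 78.2 to 94.6 ± 8.95 CPM (SD, n = 3; adjusted p = 0.0224). Gpc1 passed without DNAJ-PKAc C and with no other single library left out, and Sdc3 lost its call without WT C, DNAJ-PKAc A or DNAJ-PKAc B, with adjusted p from 0.0569 to 0.114 and from 0.0794 to 0.107. With the replicate letter as a block both lost it (0.0580 and 0.0525). Of the sheddases that release Cx3cl1, Adam10 was at -1.07 (SE 0.32, edgeR adjusted p = 0.127), with 182 CPM in WT B against 86.5 and 82.0 CPM in WT A and C, and Adam17 at 0.31 (adjusted p = 0.312). Adam10 passed with both outlying libraries left out (-0.64, adjusted p = 0.000100), and Adam17 passed without DNAJ-PKAc C (0.44, adjusted p = 0.0455). Dpp4, the protease that inactivates Cxcl10 and Cxcl12, had no count.

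**Figure D4:**
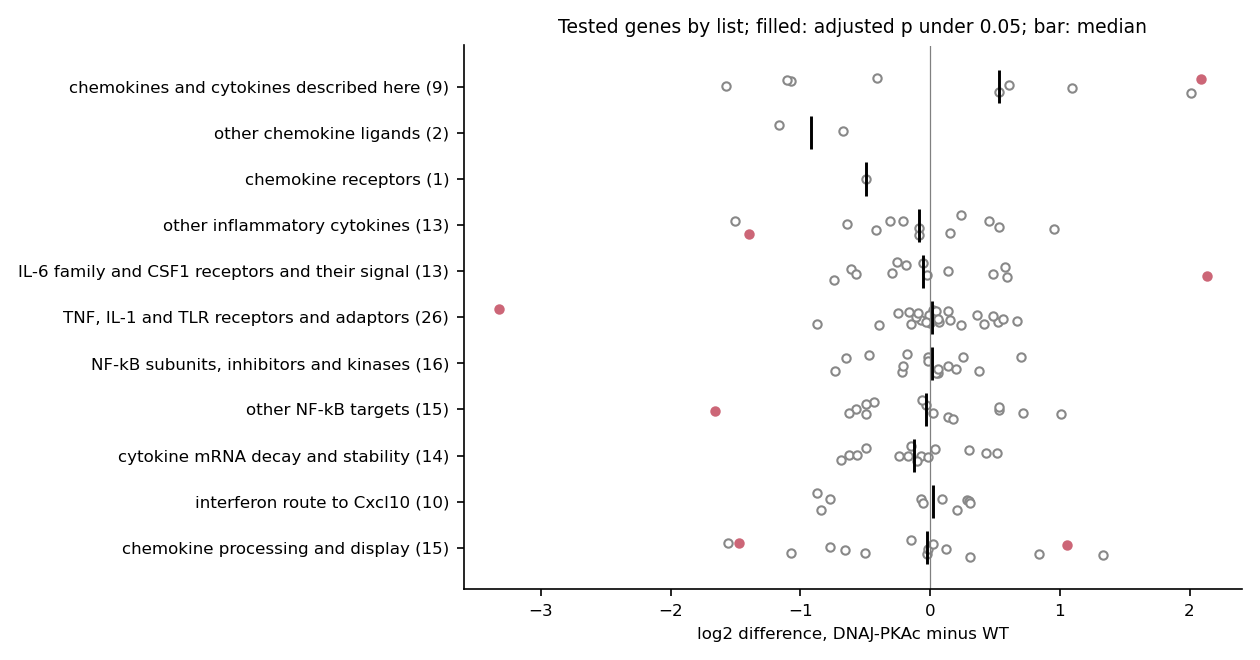
Log2 difference, DNAJ-PKAc minus WT (x axis), of each tested gene, by list (rows, number tested in brackets); filled points passed an adjusted p of 0.05 and vertical bars mark the median. The lists of more than 2 genes other than the chemokines and cytokines described here have medians between -0.12 and 0.02, and 6 of their genes passed.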

How the data were processed

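Total RNA of 6 libraries was counted per gene symbol. The authors deposited expected counts that were not normalized, per the file headers. The submitters' processing notes list STAR 2.5.2b, RSEM 1.3.0 and mm10 and give no roles. The library kit was stranded, per the labels' protocols, but the annotation and any use of strand in counting were not given in the sources used here. Ccl2 and Cxcl10 overlap genes on the other strand, so their counts are uncertain to that extent. The gene that overlaps Cxcl10, Art3, had 0 counts over all libraries. The gene that overlaps Ccl2, Gm17268, is not among the genes counted. Labels do not state separate cultures, so p-values reflect only how much these libraries vary, possibly for technical reasons.

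Here expected counts were rounded, genes filtered by filterByExpr (minimum count 10, 10975 genes kept), scaled by TMM and fitted by edgeR 4.0.16 (R 4.3.3) with robust quasi-likelihood and group as the only term, 2-sided, Benjamini-Hochberg adjusted over all genes tested. Alternatives were other scalings and filters, DESeq2 1.42.0, limma-voom (limma 3.58.1), a replicate block and libraries left out. Limits from 0 or few counts cover counting error only.

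Members, lists and alternatives were chosen with earlier results of these data known. All members were named, and of each list the 2 genes of smallest p with up to 2 more receptors, regulators or cluster neighbours; Lif, Il11, Mki67, Dcn, Col3a1, Acta2, Vim, Spp1, Tnf, Socs3, Tial1, Sdc1, Sdc4 and silent genes were named after their values were seen. Some genes that the rule names are not reported. Positions, start regions and motif searches used RefSeq on GRCm38.p6, and exon lengths GENCODE M21.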

Additional observations from a re-analysis of the deposited data

How the results depend on the processing

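No member changed the sign of its log2 difference in 126 refits of single members, and 109 stayed on the same side of the threshold. Another 13 passed it, in DESeq2 or without DNAJ-PKAc C, alone or with WT B, and 4, all of Cxcl5 with 1 other library left out, lost it. DESeq2 called 3 members and 974 genes. Without both WT B and DNAJ-PKAc C there were 8 members and 5336 genes. Leaving out 1 library gave between 0 and 5 members and between 77 and 2808 genes, the highest values without DNAJ-PKAc C. RLE or upper-quartile scaling, limma-voom, no filter and a filter of 1 CPM in 3 libraries each called 1 member, Cxcl5, and between 391 and 415 genes, and scaling shifted the median of all genes by less than 0.1 on the log2 scale. With the replicate letter as a block 1 member (Cxcl5, adjusted p = 0.0310) and 199 genes passed. Same-letter libraries deviated together with correlations of 0.21, -0.20 and 0.03, and the labels tie no batch or day to a letter, so the libraries were not treated as paired. Depth limits Cxcl10, Ccl7 and Il6, at 61, 114 and 1 counts over all libraries.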

Other observations

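Spp1, named after its values were seen, and Ccl9 are signals outside the group. How many of all genes take a course like theirs was not counted. Spp1, the secreted phosphoprotein osteopontin, which also attracts macrophages, was at 1150, 828 and 2130 CPM in WT, against 354, 373 and 3140 CPM in fusion libraries A to C (log2 -0.09, edgeR adjusted p = 0.958; -1.91 without DNAJ-PKAc C, adjusted p = 0.0221). Fusion libraries A and B lay below all WT libraries and C above them, a wider split than that of Cx3cl1. Ccl9, a chemokine of the cluster that holds Ccl5, had 4, 1 and 3 counts in WT and 13, 14 and 9 in DNAJ-PKAc, below the filter with all libraries. Without DNAJ-PKAc C its log2 difference was 2.27 (edgeR adjusted p = 0.0280), and it entered that test only through the fusion libraries, where it was high. It thus lay higher in the fusion libraries while Ccl5, 42398 bases away, lay lower.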
